A study of Mus musculus with 6 samples.

Results

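5-methylcytosine (5mC) peaks of mouse fibroblasts were compared before and after 3 days of forced expression of Tet1, Sox2, Klf4 and c-Myc. The comparison is between 165869 peaks of the day-3 5mC library and 104011 peaks of the fibroblast 5mC library, together 269880 of the 663518 peaks of the series. Members were chosen by library alone, all peaks of both lists were used, and peaks of one list were classed by whether they shared at least 1 bp with a peak of the other. The day-3 cells were fibroblasts derived from TSKM-iPS mice, at passage 4 with doxycycline for 3 days. The fibroblasts were the same kind of cells at passage 4. Both came from the strain OG2-GFP/Rosa26-M2rtTA, which carries a green fluorescent reporter and a doxycycline-dependent transactivator expressed from the Rosa26 locus. Per the labels' protocols the medium was changed to that used for embryonic stem cells together with the doxycycline, so drug, factors and medium cannot be told apart. The other 4 lists of the series, used here as further readouts, held 5-hydroxymethylcytosine (5hmC) peaks at day 3, in fibroblasts and in iPS cells at passage 10 to 15, and 5mC peaks in the iPS cells. There was 1 library per stage and mark, so no replicate error exists and no difference between stages could be tested. Whether the cells came from 1 animal or several is not stated, and peak lists hold no expression values by which the cell type could be checked.

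In mammals 5mC is placed mainly on cytosines followed by guanine. Maintenance methylation copies it onto the new strand at each cell division, and it is common over gene bodies, repeats and intergenic DNA and rare at active CpG islands. Tet enzymes oxidise 5mC to 5hmC, which can be lost passively through replication or be excised after further oxidation. Fibroblasts that become pluripotent have to remove 5mC from genes of the pluripotent state, and the first days of induction come before those genes are active in most cells. An antibody against 5mC captures fragments with several modified cytosines, so a peak reports local enrichment and not the level of the mark at a single cytosine.

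After 3 days of induction nearly all fibroblast 5mC peaks were still listed, and many further peaks had been added. Of the fibroblast peaks 89.7% (95% Wilson interval 89.5 to 89.8) overlapped a day-3 peak and 10.3%, or 10757 peaks, did not. These are called lost peaks here, and the 93254 others kept peaks. Of the day-3 peaks 56.0% (55.8 to 56.2) overlapped a fibroblast peak, and 44.0%, or 72991 peaks, did not. These are called gained peaks, and the 92878 others shared peaks. The words describe list membership only. All intervals cover counting error and not the spread between cultures, and neighbouring peaks are not independent.

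In base pairs the picture was similar. Day-3 peaks covered 170 Mb and fibroblast peaks 111 Mb, a ratio of 1.54, while the day-3 list was 1.59 times as long. The mean peak width was 1026 bp at day 3 and 1065 bp in fibroblasts. Both lists covered 93.8 Mb in common, which is 55.1% of the length covered at day 3 and 84.7% of that covered in fibroblasts. Day-3 peaks alone covered 76.3 Mb and fibroblast peaks alone 17.0 Mb.

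Gained and lost peaks were weak and narrow members of their lists. The score per peak is that of the authors' peak calling. It rises with read depth, which is unknown here, so a score is read only against others of its own list, and a difference in score between the lists is not read as a difference in 5mC. Gained peaks had a median score of 74.1 and a median width of 787 bp, against 166 and 1011 bp for shared peaks. Lost peaks had a median score of 60.6 and a median width of 796 bp, against 97.0 and 956 bp for kept peaks. The lowest score in the lists was 50.01 at day 3 and 50 in fibroblasts, so the median lost peak lay close to the floor. A score of at least 100 was reached by 25.1% of gained and 76.3% of shared peaks, and by 5.03% of lost and 48.0% of kept peaks. Peaks of at least 2 kb numbered 227 among gained and 7000 among shared peaks, and 6 among lost and 4236 among kept peaks. No lost or gained peak had the recurring score of 3100, which 192 day-3 and 45 fibroblast peaks carried.

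Ranked into 10 equal groups by score, the share found in the other list climbed steadily on both sides. In the lowest-scoring group 17.1% of day-3 peaks lay on a fibroblast peak, and in the highest-scoring group 98.7% did. Of the fibroblast peaks 69.2% of the lowest-scoring group lay on a day-3 peak. In the highest-scoring fibroblast group 5 of 10401 peaks lacked a day-3 counterpart. A high-scoring gained peak was therefore less rare than a high-scoring lost one, with 208 gained peaks in the highest-scoring of the 10 groups of the day-3 list. The lists differ in length, which by itself makes a fibroblast peak more likely to meet a day-3 peak than the reverse.

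The lists were also cut to equal numbers of best-scoring peaks. As most overlaps join 1 peak of each list, the shares of both sides are then close by construction, and their level is what can be read. With 104011 peaks each, 74.3% (74.0 to 74.6) of day-3 peaks lay on fibroblast peaks and 75.7% (75.5 to 76.0) of fibroblast peaks on day-3 peaks. The share hardly depended on how many peaks were taken. With the best 1000 peaks of each list it was 71.7% (68.8 to 74.4) of day-3 and 72.0% (69.1 to 74.7) of fibroblast peaks, and with the best 10000 it was 72.7% and 73.4%. The best 1000 peaks of each list were all present in the other whole list, so the peaks that differed at the top differed in rank and not in presence. With 42301 best-scoring peaks, the length of the fibroblast 5hmC list, which is the shortest of the series, the shares were 73.4% of day-3 and 74.6% of fibroblast peaks for 5mC. For 5hmC over the same stages they were 14.8% and 15.2%, and no test of 5mC against 5hmC was possible with single libraries. This number takes in the whole fibroblast 5hmC list down to its lowest scores but only the best-scoring part of both 5mC lists, so the marks are set side by side at unlike depths of rank.

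**Figure D1:**
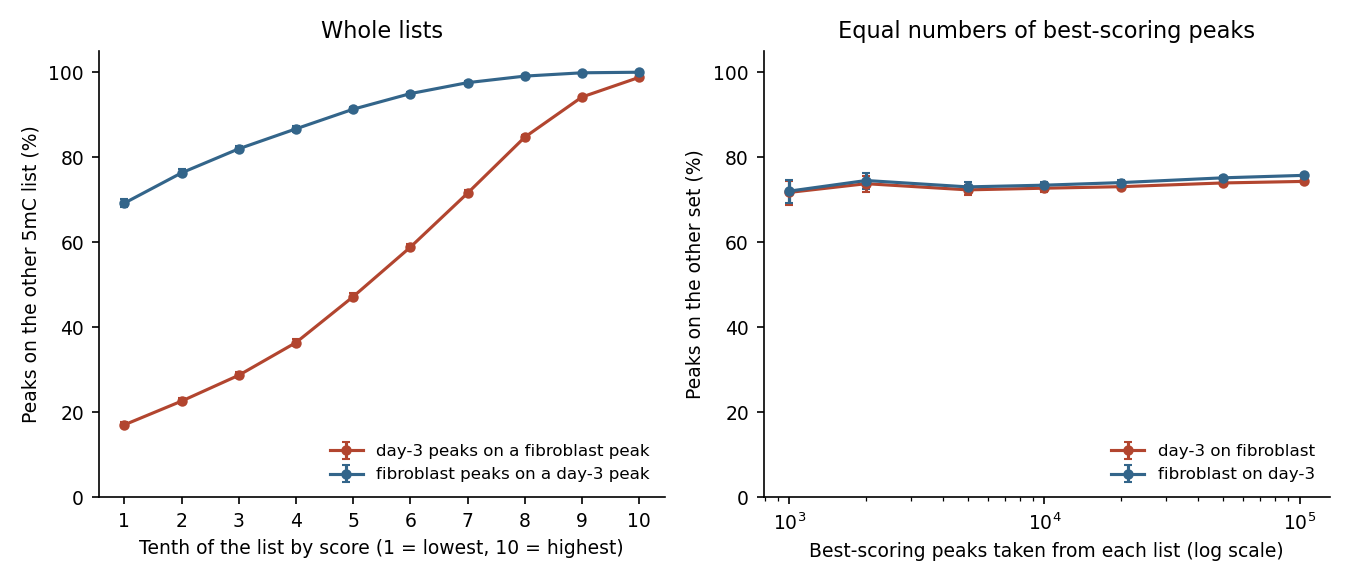
Share of 5mC peaks that overlapped a peak of the other stage, in percent, in 10 equal groups by score within the whole lists (left) and for equal numbers of best-scoring peaks on a log axis (right), with 95% Wilson intervals. On the left the day-3 shares run from 17.1% to 98.7% and the fibroblast shares start at 69.2%, while on the right all points lie between 71.7% and 75.7%.

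Where a peak was listed at both stages, it lay in nearly the same place. Pairs in which 1 day-3 and 1 fibroblast peak overlapped only each other numbered 85018. Such pairs overlap by selection, which limits in advance how far apart their centres can lie. Their centres were a median of 62.0 bp apart, and 95% of them were within 340 bp. The shared stretch was a median of 90.8% of the day-3 peak and 96.2% of the fibroblast peak. The day-3 peak was the wider in 60.6% of pairs (60.2 to 60.9), with a median width of 1006 bp against 949 bp for the fibroblast peak. Splitting and merging were uncommon, since 2767 fibroblast peaks (2.66%) met at least 2 day-3 peaks and 3064 day-3 peaks (1.85%) met at least 2 fibroblast peaks. Across the pairs Spearman's rho between the stages was 0.71 for score and 0.65 for width. This is a description across peaks of 2 libraries, and width and score are themselves related (rho 0.76 among the fibroblast peaks of these pairs).

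Gained peaks lay at various distances from fibroblast 5mC, and no baseline from other positions of the genome was computed. Their nearest fibroblast peak was a median of 4.36 kb away, 18.01% had one within 1 kb and 53.6% within 5 kb. A further 3.98%, or 2905 peaks, had none within 100 kb. Lost peaks were a median of 2.35 kb from the nearest day-3 peak, 28.9% had one within 1 kb, and 0.920% had none within 100 kb. The day-3 list is denser, which shortens the distances of lost peaks.

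The other 4 lists, which had no part in defining the classes, differed between gained and shared peaks. In iPS cells 13.0% of gained peaks (12.8 to 13.3) and 42.3% of shared peaks (42.0 to 42.6) lay on a 5mC peak. On iPS 5hmC peaks lay 41.1% of gained and 69.9% of shared peaks, on day-3 5hmC peaks 24.5% and 32.2%, and on fibroblast 5hmC peaks 9.74% and 11.6%. Of the 158388 5hmC peaks of day 3 and fibroblasts, 42301 were from fibroblasts. The day-3 5hmC list was thus much the longer, which by itself puts more 5mC peaks on it. No peak of the other 4 lists overlapped 41.6% of gained and 15.6% of shared peaks. Lost and kept fibroblast peaks stood in a similar relation. Of lost peaks 16.0% lay on iPS 5mC and 43.9% on iPS 5hmC, against 42.0% and 69.8% of kept peaks, and 39.5% of lost and 15.6% of kept peaks were in none of the 4 lists. These shares are not matched for score, which was lower in lost peaks.

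Since gained peaks scored lower, both classes were set side by side within 5 equal groups of the day-3 list by score. The gained peaks were less often on iPS 5mC in each group, from 8.84% of gained against 20.9% of shared peaks in the lowest-scoring group to 20.3% against 60.6% in the highest. They were also less often on iPS 5hmC in each group, with 34.3% against 49.2% in the lowest and 55.6% against 86.2% in the highest. The grouping did not make the classes equal, as gained peaks had the lower median score and width in each group. In the highest group these were 276 against 367 and 1375 bp against 1433 bp. With day-3 5hmC the order changed along the score. In the lowest-scoring group 19.8% of gained peaks (19.3 to 20.3) and 22.7% of shared peaks (21.7 to 23.8) lay on it. In the highest-scoring group 60.2% of 1183 gained peaks (57.4 to 62.9) and 43.4% of 31990 shared peaks (42.9 to 44.0) did. On fibroblast 5hmC the highest-scoring group had 17.2% of gained (15.1 to 19.4) and 14.2% of shared peaks (13.8 to 14.6).

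High-scoring gained 5mC peaks thus coincided more often with a 5hmC peak of the same stage than shared peaks of the same score group, although their median score was lower, at 276 for gained and 367 for shared peaks. When the 5 groups were made by width instead and the widest was taken, gained peaks were the less frequent on day-3 5hmC, at 41.2% against 44.4% of shared peaks. Of the 1183 high-scoring gained peaks 45.5% had 5hmC at day 3 and none in fibroblasts, against 33.5% of high-scoring shared peaks. This largely repeats the difference on day-3 5hmC. Of the high-scoring peaks on day-3 5hmC, 538 of 712 gained and 10728 of 13893 shared peaks had none in fibroblasts, a similar part of each. Day-3 5hmC together with neither mark in iPS cells was found at 23.8% of the gained (21.5 to 26.4) and 3.35% of the shared peaks (3.16 to 3.56). Both antibodies were applied to the same kind of cells, and the lists do not show whether the marks sat on the same molecules.

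**Figure D2:**
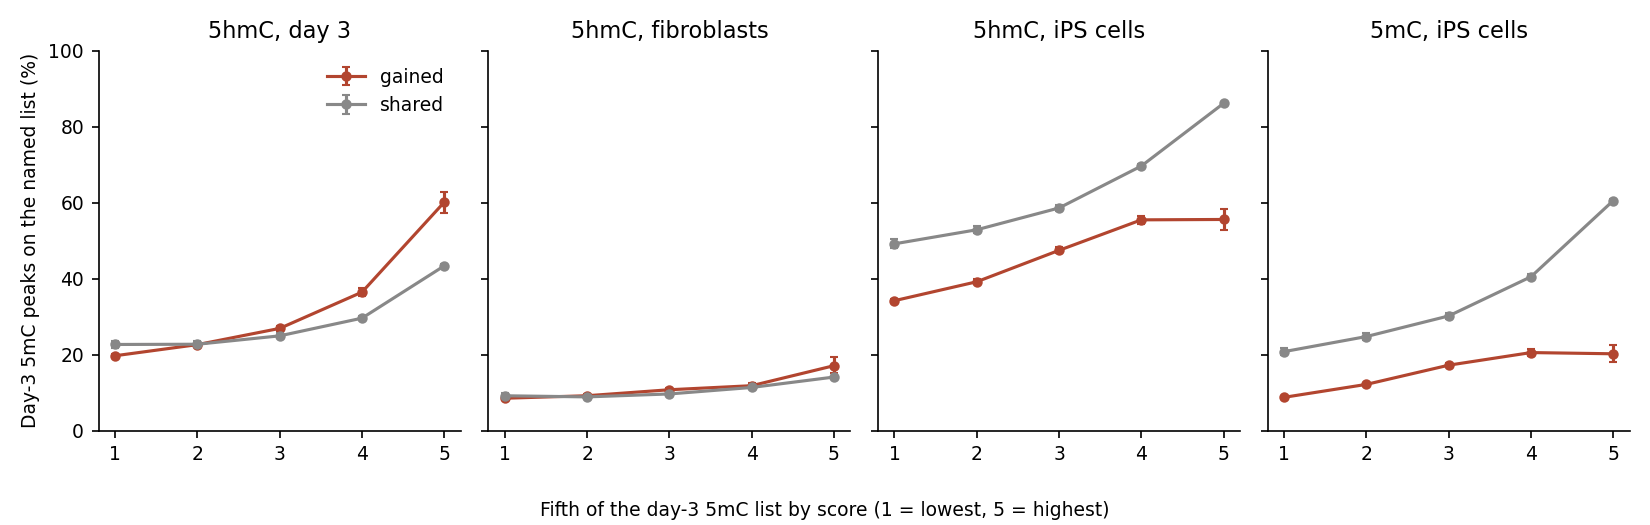
Share of day-3 5mC peaks on each of 4 other peak lists, in percent, by score group of the day-3 list (5 equal groups, from low to high), for gained peaks (no fibroblast 5mC peak) and shared peaks, with 95% Wilson intervals. Gained peaks lie below shared peaks on both iPS lists in each group, and above them in the highest group on day-3 5hmC, at 60.2% against 43.4%, and on fibroblast 5hmC, at 17.2% against 14.2%.

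Over windows of 100 kb, 5mC covered more at day 3 in 17892 windows and less in 1607. Of the 19499 windows with unequal cover, 91.8% thus had more at day 3. Peaks were present at day 3 only in 3494 windows, and in fibroblasts only in 246. Among the 12723 windows with a mean covered length of at least 2 kb over both lists, the median fold was 1.53, with 1.12 at the 10th and 2.56 at the 90th percentile. With equal numbers of best-scoring peaks from each list, 61.0% of the windows with unequal cover had more at day 3. The day-3 peaks so chosen were wider, with a mean of 1189 bp against 1065 bp in fibroblasts, which by itself adds to day-3 cover.

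A covered length at day 3 of at least 2 times that of fibroblasts was found in 2893 of these windows, 22.7%. A length of at most 0.5 times was found in 16 windows, 0.126%. Both folds were taken against equal cover and not against the median fold of 1.53. With the longer day-3 list a gain is thus reached more easily than a loss. These counts were not repeated with equal numbers of best-scoring peaks. Gains of this size were most frequent in sparsely covered windows. With the windows in 5 equal groups by mean cover, the medians of the lowest group were 3.63 kb at day 3 and 1.96 kb in fibroblasts, and 42.0% of windows passed the fold. In the group with the highest cover the medians were 25.4 kb and 17.98 kb, and 2.40% passed it. In the same 12723 windows 5hmC, which also had the longer list at day 3, passed the fold in 69.2%. It did so in 73.2% of the windows with the 5mC gain and in 68.1% of those where 5mC passed the fold in neither direction, both near the 69.2%.

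**Figure D3:**
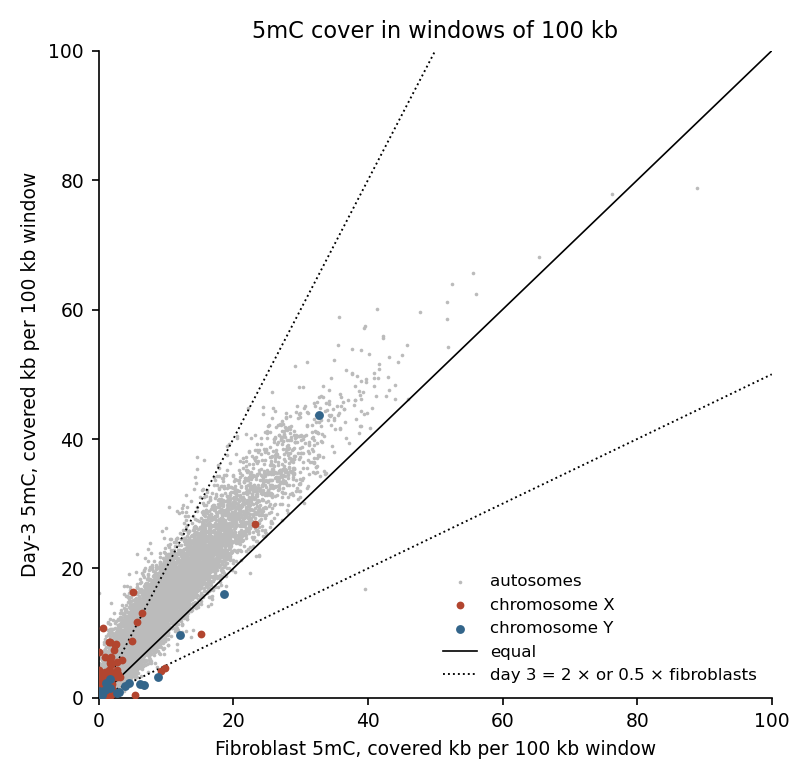
Base pairs covered by 5mC peaks per window of 100 kb, in kb, at day 3 (vertical) and in fibroblasts (horizontal), each point 1 window. Most autosomal windows (grey) lie above the solid line of equal cover. Of the 9 chromosome Y windows (blue) with a mean cover of at least 2 kb, 7 lie below it. The dotted lines mark 2 times and 0.5 times the fibroblast cover. Among the grey points below the lower dotted line is the window on chromosome 3 with 16.8 kb at day 3 and 39.5 kb in fibroblasts.

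The 5 windows with the largest 5mC gain had all held 5mC in fibroblasts. Coordinates are on mm9. The first, on chromosome 7 from 52200001 to 52300000, had 58.8 kb covered at day 3 and 35.8 kb in fibroblasts. The second, also on chromosome 7 from 52700001 to 52800000, had 37.3 kb and 14.7 kb. On chromosome 10 the window from 80100001 to 80200000 had 44.8 kb at day 3 and 22.2 kb in fibroblasts, and that from 79700001 to 79800000 had 51.3 kb and 29.2 kb. On chromosome 4 the window from 140600001 to 140700000 had 47.3 kb and 25.8 kb.

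In each of these 5 windows 5hmC was also wider at day 3, at 22.8 to 43.8 kb, against 1.61 to 6.48 kb in fibroblasts. This was common with the longer 5hmC list at day 3, as 5hmC covered more at day 3 in 83.9% of windows with a 5mC gain of at least 2 times. It also did so in 81.3% of those where 5mC passed the fold in neither direction. In iPS cells 5mC covered 1.75 to 19.4 kb of these 5 windows, less than in fibroblasts in each, and 5hmC covered 19.9 to 43.3 kb. The windows where 5mC passed the fold in neither direction also had less iPS 5mC, with a median of 4.12 kb against 8.08 kb in fibroblasts. The window on chromosome 7 with the largest gain held 35 5mC peaks at day 3 and 26 in fibroblasts.

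The largest loss was an isolated case on chromosome 3 from 25400001 to 25500000, with 16.8 kb of 5mC at day 3 and 39.5 kb in fibroblasts. At day 3 the window held 14 separate peaks, whereas in fibroblasts 6 nearly adjoining peaks formed 1 block. 5hmC covered 7.08 kb of the window at day 3 and 40.7 kb in fibroblasts, so both marks were narrower there at day 3. In iPS cells 5mC covered 37.7 kb and 5hmC 9.66 kb. The next losses were smaller. On chromosome 1 from 90100001 to 90200000 5mC covered 78.8 kb at day 3 and 88.8 kb in fibroblasts, and on chromosome Y from 2400001 to 2500000 it covered 3.24 kb and 8.89 kb. On chromosome X the window from 121300001 to 121400000 had 9.82 kb at day 3 and 15.1 kb in fibroblasts, and that from 121200001 to 121300000 had 4.68 kb and 9.90 kb. 5hmC was also narrower at day 3 in these 4 windows, with 53.0 kb against 86.2 kb in fibroblasts in the widest. Both marks thus covered less at day 3 in all 5 windows with the largest 5mC loss. Of the 16 windows with at most 0.5 times the 5mC cover at day 3, 2 had more 5hmC at day 3. Among windows where 5mC passed the fold in neither direction 81.3% did.

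Gained peaks also formed runs that no fibroblast peak interrupted. Most runs were short, with 39626 runs for 72991 peaks and 102 runs of at least 10 peaks. The longest held 22 gained peaks within 149 kb on chromosome 15, from 102795562 to 102944519, with a median score of 87.4. Of these 22 peaks 16 lay on a day-3 5hmC peak, 1 on a fibroblast 5hmC peak, 15 on an iPS 5hmC peak and 3 on an iPS 5mC peak. Of all gained peaks 24.5% lay on day-3 5hmC, 9.74% on fibroblast 5hmC, 41.1% on iPS 5hmC and 13.0% on iPS 5mC. The 22 peaks are neighbours in 1 locus and not independent, so their counts describe this locus only. With 50 kb on each side the region held 36 day-3 5hmC peaks. It was picked for its run of 5mC and not for 5hmC. The next runs, of 17 peaks each, were spread over longer stretches. They spanned 769 kb on chromosome 18, from 47791915 to 48560899, and 6089 kb on chromosome X, from 53668208 to 59757213, and 3 and 2 of their peaks lay on day-3 5hmC. Of the gained peaks 30.6% and of the lost peaks 86.1% stood alone, and a class that makes up less of its list leaves more of its peaks alone. Of the 4 runs of at least 5 lost peaks 3 were on chromosome X, with 8, 6 and 5 peaks, from 53242080 to 53392900, from 120325047 to 120765350 and from 51082713 to 51376565, and the other, also of 5 peaks, lay on another chromosome.

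**Figure D4:**
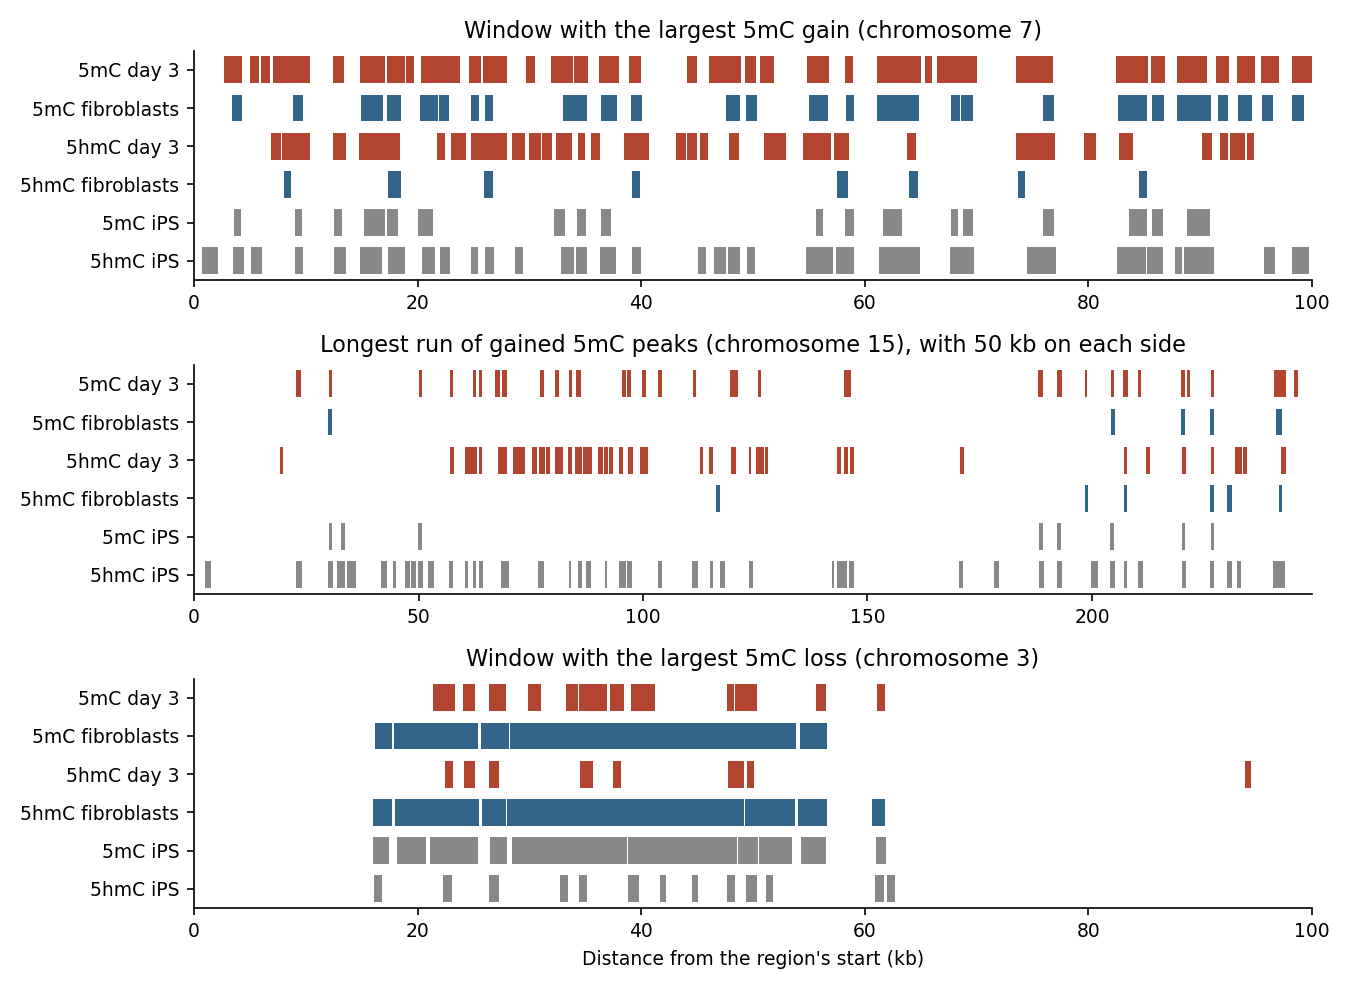
Peaks of all 6 lists as bars along 3 regions, with distance from the region's start in kb. At the largest gain 35 day-3 5mC peaks stand against 26 fibroblast peaks, at the longest run (between 50 kb flanks) 22 day-3 5mC peaks have no fibroblast counterpart, and at the largest loss 14 separate day-3 5mC peaks stand against a block of 6 fibroblast peaks.

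Single peaks showed the extremes of each class. The best-scoring gained peak, with a score of 1137, lay on chromosome 7 from 20212184 to 20214757, where the day-3 5hmC list also had a peak and the fibroblast and iPS lists of both marks had none. The second, with a score of 1088, was also the widest at 4187 bp. It lay on chromosome X from 93160344 to 93164530, 966 kb from the nearest fibroblast 5mC peak, and had 5hmC at day 3 and in iPS cells. The third, on chromosome 8 from 119776837 to 119780387 with a score of 1052, lay on peaks of all 4 other lists. The next widest gained peaks, 3667 bp each, were on chromosome 12 from 93008840 to 93012506 and on chromosome 19 from 57430077 to 57433743. Both had 5hmC at day 3 and in iPS cells, none in fibroblasts, and no 5mC in iPS cells.

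The best-scoring lost peaks were on chromosome Y from 2485125 to 2487292, with a score of 491, on chromosome Y from 1263157 to 1264793, with 450, and on chromosome 3 from 25416165 to 25417685, with 388, as the first peak of the fibroblast block in the window of the largest loss. All 3 lay on fibroblast 5hmC and on iPS 5mC peaks. The widest lost peaks, of 2255, 2214 and 2178 bp, were on chromosome 11 from 82209460 to 82211714, on chromosome 17 from 47398654 to 47400867 and on chromosome 18 from 38264929 to 38267106. They had day-3 peaks at 0.216, 1.68 and 1.43 kb, and none of them had iPS 5mC.

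The best-scoring shared peaks had scores of 3230, 3227 and 3220 at day 3 and 1349, 1706 and 1436 in fibroblasts. They were on chromosome 7 from 7230164 to 7231398, on chromosome 18 from 38356646 to 38359467 and on chromosome 8 from 72975049 to 72977271, and all 3 had 5hmC at day 3 and both marks in iPS cells. The widest shared peak, on chromosome 11 from 3075054 to 3100455, measured 25402 bp at day 3 and 25436 bp in fibroblasts. The next were on chromosome 1 from 90148481 to 90167306, with 18826 bp at day 3 and 18845 bp in fibroblasts, and on chromosome 15 from 76002202 to 76020075, where the day-3 peak of 17874 bp met 2 fibroblast peaks. Each of these 3 wide peaks lay on peaks of all 4 other lists.

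The autosomes behaved alike and the sex chromosomes stood apart. On single autosomes the ratio of day-3 to fibroblast peak numbers ranged from 1.50 on chromosome 5 to 1.68 on chromosome 3, the share of gained peaks from 40.2% to 47.1% on the same chromosomes, and the share of lost peaks from 8.53% on chromosome 7 to 11.96% on chromosome 14. Chromosome X held 605 peaks at day 3 and 243 in fibroblasts, a ratio of 2.49. There 69.1% of day-3 peaks were gained (65.3 to 72.6) and 21.8% of fibroblast peaks were lost (17.1 to 27.4), so that more of both lists was unmatched than on any autosome. Of its 46 windows with enough cover, 28 had at least 2 times the 5mC cover at day 3, or 60.9% against 22.7% of all such windows and 42.0% of those in the group with the lowest cover.

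Chromosome Y was the only chromosome with fewer peaks at day 3, with 50 at day 3 and 52 in fibroblasts. The mitochondrial genome had 2 in each list. On Y 6 day-3 peaks were gained and 17 fibroblast peaks lost, or 32.7% (21.5 to 46.2). Of the 16 windows with at most 0.5 times the cover at day 3, 5 were on Y and 4 on X.

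Lost peaks on X and Y lay on fibroblast 5hmC more often than those of the whole list. On X 38 of 53 lost peaks and on Y 16 of 17 lay on a fibroblast 5hmC peak, against 9.86% of all lost peaks. Kept peaks did so in 51 of 190 cases on X and in 30 of 35 on Y, so on Y the share was high in both classes. On day-3 5hmC lay 2 of the 53 lost and 65 of the 190 kept peaks of X, and 4 of the 17 lost and 26 of the 35 kept peaks of Y. On iPS 5mC lay 22 of the 53 lost and 55 of the 190 kept peaks of X, and 15 of the 17 lost and 32 of the 35 kept peaks of Y. Among the 24 lost peaks in the highest-scoring of 5 equal groups of the fibroblast list 14 were on X or Y, whereas 87 of the 20778 kept peaks of that group were. The sources used here do not give the sex of the cells, the copy number of X and Y or the placement of reads with several matches, and their part in these values was not tested.

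**Figure D5:**
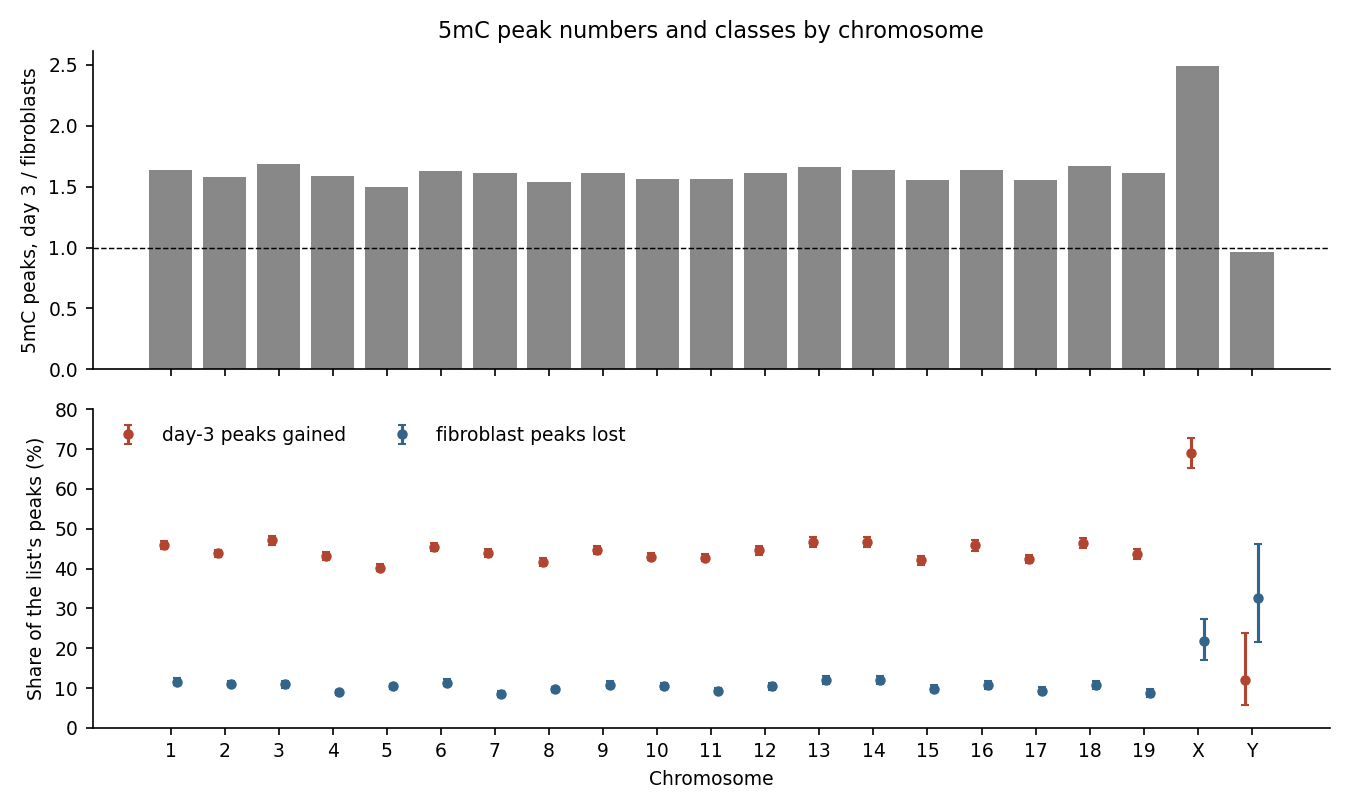
Ratio of 5mC peak numbers, day 3 over fibroblasts, by chromosome (top, dashed line at equal numbers), and share of day-3 peaks gained and of fibroblast peaks lost, in percent with 95% Wilson intervals (bottom). The autosomes lie between 1.50 and 1.68 in ratio, chromosome X at 2.49 and chromosome Y just under equal numbers.

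Along the autosomes the added peaks were relatively fewer toward the far end. Mouse autosomes have their centromere at the start of the coordinates. With the covered span of each autosome cut into 5 equal parts, gained peaks made up 47.1% of day-3 peaks in the part nearest the start and 40.1% in the part farthest from it, with 45.8%, 45.4% and 44.9% between. The last part also held the most peaks, 52781 at day 3 and 35040 in fibroblasts. The share of lost fibroblast peaks was 10.4% in the first part, 11.3%, 11.2% and 10.6% in the next, and 9.204% in the last.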

How the data were processed

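Genomic DNA was immunoprecipitated with an antibody against 5mC or 5hmC and sequenced. Per the labels' protocols, 500 ng of adapter-ligated, sonicated DNA entered each reaction, 14 to 16 amplification cycles followed, and fragments of 300 to 500 bp were purified. Per the submitters' processing notes the tools were CASAVA 1.8, Bowtie 0.12.7 and MACS 1.4.1, and the build was mm9. Each deposited file is a peak list of 1 library with a score per peak, and the sources used here do not give the score's definition, any control library, duplicate handling or read depth. Deeper sequencing gives more peaks and higher scores, so list length mixes the mark with depth.

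Overlaps were counted from 1 bp with Python 3.11.15, numpy 2.4.6 and pandas 2.3.3, with Wilson intervals from scipy 1.17.1 and figures from matplotlib 3.10.9. The counting was tested on simulated data and gave the same numbers as bedtools 2.31.1. Regions named are the 5 largest gains and the 5 largest losses of covered length over 100 kb windows, the 3 best-scoring and 3 widest peaks of each class and the 3 longest runs. Members, classes and rules were chosen with earlier results of these data known. Starts are counted from 1. Sequence and annotation of mm9 were not used here, so peaks were not assigned to genes and the planned gene lists were left out.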

Additional observations from a re-analysis of the deposited data

How the results depend on the processing

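No paired analysis was possible because each stage has 1 library per mark, and no replicate could be left out. Over autosomes only, each result moved by less than its counting interval. An equal score is not an equal rank in the lists, since the best 50000 peaks reached down to 167 at day 3 and 93.2 in fibroblasts. Values at a common score cut are therefore not read as a difference in 5mC. With a score of at least 100 in both lists, the day-3 list was 1.97 times as long and covered 1.82 times the length, 47.6% of day-3 and 93.6% of fibroblast peaks overlapped, and 93.4% of differing windows had more 5mC at day 3. With peaks within 1000 bp joined the values in the same order, without the windows, came to 1.51, 1.56, 57.8% and 89.9%. Lists cut to the same number of best-scoring peaks gave a covered length ratio of 1.12, shares of 74.3% and 75.7%, and more 5mC in 61.0% of windows. Asking for 50% of a peak to overlap gave 54.2% of day-3 and 88.8% of fibroblast peaks, and the centre of the peak 54.4% and 88.6%. Windows of 1 Mb gave 98.4% with more, and windows with a mean cover of at least 2 kb 95.3%.

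The following alternatives were chosen after seeing the data. High-scoring gained peaks exceeded shared ones on day-3 5hmC by 16.8 percentage points. The excess was 19.6 by peak centre, 20.8 by an overlap of at least 50% and 25.7 with equal numbers of 5mC peaks. It was 16.1 for gained peaks with no fibroblast peak within 5 kb and 16.6 with the 42301 best-scoring day-3 5hmC peaks. It turned to -3.20 for the widest of 5 equal groups by width, which holds 4359 gained peaks; the cause was not tested. On iPS 5mC the difference between gained and shared peaks was -29.2 points, and it was -26.2 by centre, -25.04 by 50% overlap, -31.6 for gained peaks with no fibroblast peak within 5 kb, -25.6 with the 42301 best-scoring iPS peaks and -28.2 with equal numbers of 5mC peaks.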
